A study of Mus musculus with 12 samples.

Results

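The SLC25 family comprises the carriers of the mitochondrial inner membrane, and its messages were followed here across 4 groups of mouse left ventricle with 1 array per animal. Members were all genes with a probe set annotated to a single symbol beginning Slc25a. The array held 93 such probe sets for 44 genes. A gene counted as measured where a probe set exceeded 4 on the log2 scale on at least 3 of 12 arrays, and the probe set with the highest mean over the 12 arrays then stood for the gene. Of the 44 genes, 35 were measured, among 10435 measured genes in all, and 9 were not.

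The inner mitochondrial membrane is closed to most metabolites, and these carriers pass nucleotides, phosphate, carboxylates, amino acids, acylcarnitines, cofactors and iron across it, usually by exchanging one substrate for another. Heart muscle draws nearly all of its ATP from mitochondria, so the adenine nucleotide and phosphate carriers are among its most abundant mitochondrial proteins. The carnitine carrier admits fatty acids for oxidation, and the aspartate-glutamate and oxoglutarate carriers move reducing equivalents inward through the malate-aspartate shuttle.

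All animals were male C57BL/6 mice operated on first at 7 weeks of age, with no other genetic change named in the labels. The sAB group had a sham first operation and was examined 4 weeks later. The AB group carried an aortic band, a constriction that loads the left ventricle with pressure, and was examined after the same 4 weeks. The DB3 group was banded for 4 weeks, then debanded, and examined 3 days after that second operation. The sDB3 group had a sham first operation followed by the second procedure and was also examined at 3 days. The labels call this group a sham but do not say whether its second procedure was itself a sham, and it is used below as the later sham. Each group had 3 arrays, and the labels give no batch, litter or pairing. The tissue was whole left ventricle with all its cell types, so a lower signal from fewer cells of a type and one from less RNA per cell cannot be told apart.

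The arrays were alike in range, with 42.4% to 43.1% of probe sets above a log2 value of 4. The 3 sAB arrays stood apart on BioC, a bacterial RNA spiked in during processing, at 10.15 to 10.51 against 8.28 to 8.60 on the other 9 arrays. The handling of the sAB arrays and the sham group therefore cannot be told apart in any comparison with sAB, and the AB results are given against sDB3 as well. Another spiked RNA, Cre, also lay lower in sAB, at 14.38 to 14.55 against 14.71 to 14.91. The 3′ minus 5′ signal of beta-actin, a sign of RNA quality, was 1.02 to 1.13 in AB, 1.20 to 1.26 in sAB, 1.20 to 1.25 in sDB3 and 1.11 to 1.32 in DB3, so it was lower in AB than in either sham. All 9 ventricular cardiomyocyte markers were measured, with a mean log2 signal per array of 15.43 to 15.45 in sAB, 15.33 to 15.41 in AB, 15.49 to 15.53 in sDB3 and 15.39 to 15.43 in DB3. Of 5 atrial markers 4 were measured, with a mean log2 signal per array of 7.80 to 9.50 in sAB, 10.25 to 12.10 in AB, 10.09 to 12.32 in sDB3 and 6.77 to 12.45 in DB3. Their median difference was 2.43 in AB against sAB and 2.98 in sDB3 against sAB, with 1 of the 4, Nppa, called in the first and none by limma in the second. It was -2.44 in DB3 against sDB3, with 1 marker above 0 and 3 below. The median was -1.72 in DB3 against AB and -0.71 in AB against sDB3. For DB3 against sDB3 minus AB against sAB it was -4.94. In DB3 against sDB3 and in AB against sDB3 the 1 marker called by limma was Nppa, and it was higher (0.91 and 2.07), opposite to the median. In DB3 against AB and in DB3 against sDB3 minus AB against sAB, 1 of the 4 was called, below 0. Of the other marker lists, the mean log2 signal of 7 endothelial markers lay at 9.57 to 9.67 in AB against 9.19 to 9.42 in sDB3, and that of 7 fibroblast markers at 11.03 to 11.48 against 10.52 to 10.60. The mean of the 6 measured macrophage markers lay at 8.45 to 8.63 in AB against 8.10 to 8.25 in sDB3. All 6 were below 0 in sDB3 against sAB, with a median of -0.52. The smooth muscle and pericyte means of AB and sDB3 overlapped. None of 4 skeletal muscle markers was measured. Of 4 brown fat markers 2 were measured, while Ucp1 and Elovl3 were not. The mean log2 signal of the 2 was 6.33 to 7.65 in sAB, 6.21 to 6.98 in AB, 6.39 to 7.72 in sDB3 and 6.20 to 8.36 in DB3. Their differences were -1.56 and 0.07 in AB against sDB3 and -0.10 and 1.40 in DB3 against AB, and neither marker was called in these comparisons. The part of these controls and markers in the carrier results was not tested.

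The family as a whole did not move in one direction. In AB against sAB, 4 of the 35 carriers passed the limma test at an adjusted p of 0.05, 3 higher and 1 lower, while 19.7% of all genes were called, including 7.69% lower. After quantile normalization the split was 3 higher and 2 lower. The median difference of the 35 carriers was -0.03 on the log2 scale, beside 0.01 for all genes. In AB against sDB3, 11 carriers were called, 3 higher and 8 lower, while 17.3% of all genes were higher and 4.69% lower. The carriers' median there was -0.06 beside 0.11 for all genes. With each array centred on its median the carriers split into 4 higher and 5 lower. In DB3 against sDB3, 3 carriers were called and all were higher, beside 6.36% of all genes, 5.37% higher and 0.997% lower. No carrier was called lower there by limma, although 5 of 35 were lower and 7 higher at an unadjusted p under 0.05. Under other settings Slc25a5 was called lower with its probe sets averaged (-0.28, adjusted p 0.0357), and Slc25a3 with a trended and robust prior (adjusted p 0.0393), without the filter (0.0492) and without moderation (0.0410). In DB3 against AB, 8 carriers were called, 5 higher and 3 lower, beside 9.16% of all genes, 4.04% higher and 5.12% lower. In sDB3 against sAB, 8 carriers were called, 5 higher and 3 lower, beside 17.8% of all genes, 5.49% higher and 12.3% lower. The difference of effects was taken as DB3 against sDB3 minus AB against sAB. It was called for 2 carriers, 1 above 0 and 1 below, beside 6.04% of all genes, 3.45% above and 2.59% below. In the F test over the 4 groups, 14 of 35 carriers passed, beside 37.2% of all genes. All 3 arrays of some group lay above or below the other 9 for 12 of 35 carriers, beside 32.8% of all genes. In no comparison was any of the 15 carriers with several measured probe sets called in both directions. The probe sets of a called carrier could still lie on both sides of 0. Those of Slc25a51 ran from -0.06 to 0.41 in AB against sAB, and those of Slc25a32 from -0.04 to 0.45 in AB against sDB3.

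**Figure D1:**
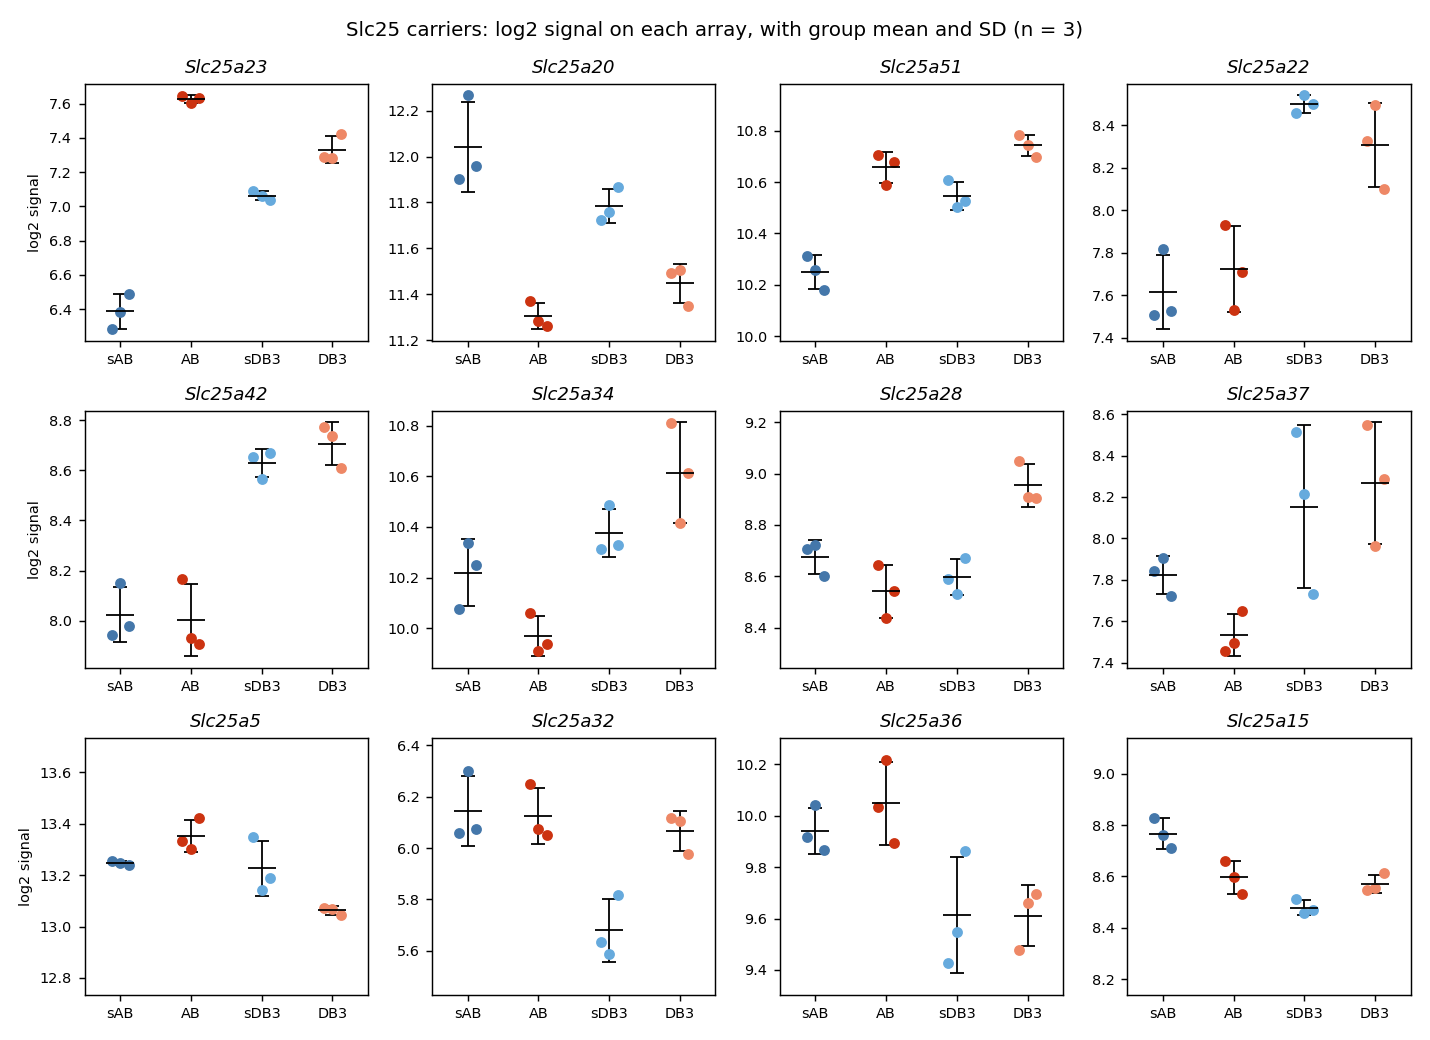
Log2 signal of 12 carriers on each array (points), with the group mean and SD (bars, n = 3), in sAB, AB, sDB3 and DB3; each panel has its own vertical axis. Slc25a23 runs from 6.29 to 7.65 in 4 separate levels, and in Slc25a22 and Slc25a42 the sDB3 and DB3 arrays sit above all arrays of sAB and AB.

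Slc25a23 had the largest banding difference of the 35 carriers. It encodes a calcium-regulated carrier that exchanges ATP-Mg for phosphate and so changes the size of the matrix adenine nucleotide pool. Its log2 signal was 6.29, 6.38 and 6.49 in sAB and 7.65, 7.60 and 7.63 in AB. It was 7.09, 7.06 and 7.04 in sDB3 and 7.29, 7.28 and 7.42 in DB3. No 2 groups overlapped, and the order was sAB, sDB3, DB3, AB. AB exceeded sAB by 1.24 (SE 0.068, n = 3 per group), 2.36-fold, with a limma adjusted p of 3.76e-06. Against sDB3 the AB signal was higher by 0.56 (SE 0.068, adjusted p 0.000700), 1.48-fold. The shams themselves differed, with sDB3 above sAB by 0.68 (adjusted p 0.000315).

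After debanding the Slc25a23 signal was lower than in the banded ventricle, at -0.30 (SE 0.068, limma adjusted p 0.0233), and higher than in its own sham by 0.27 (adjusted p 0.0454). The difference of effects, DB3 against sDB3 minus AB against sAB, was -0.97 (SE 0.096, adjusted p 0.000987). It passed with each of the 12 arrays left out in turn. The excess over sDB3 lost its call with any 1 of the 6 arrays left out, at an adjusted p of up to 0.105. It was also lost under 5 of 10 other settings, and after quantile normalization it was 0.15 (adjusted p 0.249). The fall from AB to DB3 lost it without DB3 replicate 1 or 2 or any AB replicate, at up to 0.0817. Slc25a24, the other measured carrier of this calcium-regulated kind, lay between 7.30 and 7.99 on all arrays and was not called in any comparison.

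The principal ATP exporters gave high signals. Slc25a4, the adenine nucleotide carrier of heart and skeletal muscle, read 16.0593, 16.0019 and 16.0218 in sAB, 15.9818, 15.9316 and 15.9861 in AB, 16.0764, 16.0996 and 16.0349 in sDB3, and 15.9909, 15.9997 and 15.9470 in DB3. The AB and DB3 arrays overlapped each other and lay just below both shams. Its difference in AB against sAB was -0.06 (SE 0.053, limma adjusted p 0.456), and no comparison was called in the main fit. Under other settings AB was called lower than sDB3 at -0.10. These were no filter (adjusted p 0.0330), a trended and robust prior (0.0229) and no moderation (0.0259). This probe set lay close to the top of the scale, where the highest values per array were 16.35 to 16.61. Of the 4 measured probe sets for Slc25a4, the pair with mean signals of 16.01 and 15.75 gave -0.06 and -0.04 in AB against sAB. The pair with mean signals of 12.6 and 7.42 gave -0.38 (adjusted p 0.00479) and -0.58 (adjusted p 0.00555) when every probe set was tested on its own. Against sDB3 the same 4 probe sets gave -0.10, -0.09, -0.34 and -0.30, of which the -0.34 passed at an adjusted p of 0.00998. All 4 were below 0 in both comparisons, so the size of the banding difference depended on the probe set. With all probe sets of a gene averaged instead, the difference for Slc25a4 was called against both shams.

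Slc25a5 encodes the adenine nucleotide carrier of most other tissues. It read 13.25, 13.25 and 13.24 in sAB, 13.33, 13.30 and 13.42 in AB, 13.35, 13.14 and 13.19 in sDB3, and 13.07, 13.07 and 13.04 in DB3. All 3 DB3 arrays lay below the other 9. DB3 was lower than AB, with a difference of -0.29 (SE 0.066, limma adjusted p 0.0221). That call was lost without any DB3 replicate or without AB replicate 2 or 3, at an adjusted p of up to 0.0962. All 8 measured probe sets for Slc25a5 were below 0 in DB3 against AB, from -0.57 to -0.21, and 3 of them passed. Slc25a5 was not called in AB against either sham.

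**Figure D2:**
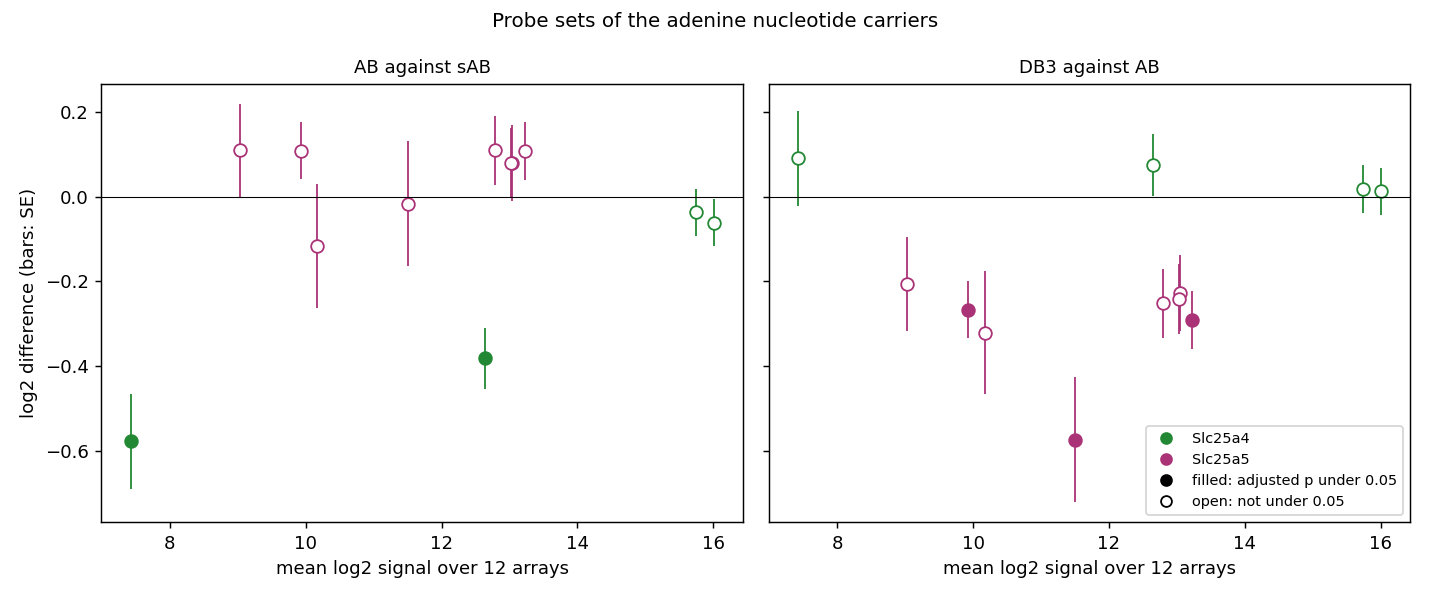
Log2 difference of each measured probe set of Slc25a4 and Slc25a5 (vertical axis, bars are standard errors) against its mean log2 signal over 12 arrays (horizontal axis), for AB against sAB and DB3 against AB. Filled points passed at an adjusted p of 0.05; the 2 brightest Slc25a4 probe sets sit near 0 in AB against sAB and the 2 dimmer ones at -0.38 and -0.58.

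Slc25a3, the phosphate carrier that supplies ATP synthase and also carries copper, read 14.63, 14.59 and 14.60 in sAB and 14.59, 14.54 and 14.61 in AB. It read 14.76, 14.81 and 14.73 in sDB3 and 14.64, 14.66 and 14.61 in DB3. The sDB3 arrays were above all others. AB was below sDB3, with a difference of -0.19 (SE 0.054, limma adjusted p 0.0315), but against sAB the difference was -0.03 (adjusted p 0.773). The call against sDB3 was lost after centring each array on its median (adjusted p 0.0964) and without sDB3 replicate 1 or 2 or any AB replicate, at up to 0.105. Of the 5 measured carriers of this substrate group, 1 was called higher in AB against sAB and 4 were not called.

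Slc25a20, the carnitine-acylcarnitine carrier that admits long-chain fatty acids to the matrix, had a lower signal in the banded ventricle. It read 11.90, 12.27 and 11.96 in sAB, 11.37, 11.28 and 11.26 in AB, 11.72, 11.76 and 11.87 in sDB3, and 11.49, 11.50 and 11.35 in DB3. Neither sham overlapped AB. Against sDB3, which does not share the BioC offset, AB was lower, with a difference of -0.48 (SE 0.096, limma adjusted p 0.00735). The value against sAB was -0.74 (adjusted p 0.000701). Its second probe set gave -0.46 and -0.53 and passed against both shams. Both calls held with each of the arrays compared left out in turn, with adjusted p values of at most 0.0335 and 0.00462.

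The mean Slc25a20 signal 3 days after debanding lay between those of AB and sDB3, and the DB3 and AB arrays overlapped. DB3 was below sDB3, with a difference of -0.33 (SE 0.096) at a limma adjusted p of 0.0635, and above AB by 0.14 at 0.397. The DB3 arrays did not overlap sDB3. Without the sAB arrays in the model the difference from sDB3 passed at 0.0467, as it did with a trended and robust prior (0.0359) and, at -0.29, with its probe sets averaged (0.0490). Enzymes that work with the carriers were described from a list of 16, of which 13 were measured. The list spans the carnitine and malate-aspartate shuttles, creatine kinase and citrate lyase, so most of it does not concern Slc25a20. Crat, the matrix carnitine acetyltransferase, read 11.66, 11.62 and 11.73 in sAB, 11.44, 11.25 and 11.27 in AB, 11.73, 11.81 and 11.79 in sDB3, and 11.80, 11.65 and 11.60 in DB3. It fell by 0.35 in AB against sAB (adjusted p 0.00863) and by 0.46 against sDB3 (adjusted p 0.00311), and it was higher in DB3 than in AB by 0.37 (adjusted p 0.0146). Cpt2, which rebuilds acyl-CoA inside the matrix, was lower in AB than in sAB, with a difference of -0.36 (adjusted p 0.0117), and against sDB3 the value was -0.21 (adjusted p 0.0944). Of the 13 enzymes on the whole list, 2 were called lower and none higher in AB against sAB, where 19.7% of all genes were called and 7.69% were lower. In AB against sDB3 1 was called lower, beside 4.69% of all genes.

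Of the di- and tricarboxylate carriers, Slc25a11 exchanges oxoglutarate for malate in the malate-aspartate shuttle. It read 12.62, 12.44 and 12.48 in sAB, 12.48, 12.38 and 12.46 in AB, 12.66, 12.64 and 12.60 in sDB3, and 12.50, 12.50 and 12.48 in DB3. AB and sAB overlapped, while all AB arrays were below all sDB3 arrays, with a difference of -0.20 (SE 0.064, limma adjusted p 0.0468). That call was lost with any 1 of the 6 arrays left out, at up to 0.150, and after centring, at 0.127.

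Slc25a1, the citrate carrier that exports acetyl units for lipid synthesis, ranged from 5.51 to 6.12 in sAB, 6.18 to 6.57 in AB, 5.51 to 6.07 in sDB3 and 6.36 to 6.77 in DB3. It was higher in AB than in sAB by 0.57 (SE 0.19, limma adjusted p 0.0604) and higher in DB3 than in sDB3 by 0.68 (adjusted p 0.0612), and AB against sDB3 gave 0.56 (adjusted p 0.0587). No difference passed, although no array of AB or DB3 overlapped its own sham. Its F test over 4 groups passed, at an adjusted p of 0.0248. Slc25a10, the dicarboxylate carrier, lay between 5.89 and 6.31 throughout.

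The aspartate-glutamate carriers of the same shuttle had different values. Slc25a12, the form of heart, muscle and brain, read 12.17, 12.19 and 12.21 in sAB, 12.12, 11.97 and 12.02 in AB, 12.32, 12.34 and 12.24 in sDB3, and 12.19, 12.16 and 12.03 in DB3. AB was below sDB3, with a difference of -0.26 (SE 0.066, limma adjusted p 0.0189) and below sAB, with a difference of -0.16 (adjusted p 0.121). The first of these calls was lost without sDB3 replicate 1 or 2 or AB replicate 2 or 3, at up to 0.0739, and when its probe sets were averaged, at 0.214.

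Slc25a13, the form best known from liver, read 10.53, 10.35 and 10.43 in sAB, 10.68, 10.68 and 10.66 in AB, 10.72, 10.59 and 10.48 in sDB3, and 10.66, 10.69 and 10.67 in DB3. AB exceeded sAB by 0.24 (SE 0.073, limma adjusted p 0.0432) but overlapped sDB3, where the difference was 0.08. The call was lost without any AB replicate or without sAB replicate 2 or 3, at up to 0.135. Whether the 2 aspartate-glutamate carriers differ in their response was not tested.

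Among 7 measured amino acid carriers, Slc25a22 differed most between groups. It is a mitochondrial glutamate carrier. Its signal was 7.51, 7.82 and 7.52 in sAB and 7.93, 7.53 and 7.71 in AB, which overlapped. After the second operation it was 8.46, 8.54 and 8.50 in sDB3 and 8.33, 8.49 and 8.10 in DB3, with every one of these 6 arrays above all 6 arrays of sAB and AB. The sDB3 signal exceeded sAB by 0.88 (SE 0.13, limma adjusted p 0.00261), 1.85-fold, and the DB3 signal exceeded AB by 0.58 (adjusted p 0.0187). AB was below sDB3, with a difference of -0.78 (adjusted p 0.00311). The DB3 against AB call was lost without DB3 replicate 1 or 2 or AB replicate 2 or 3, at up to 0.0791. The sDB3 calls held with each array left out, at no more than 0.0145.

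Slc25a42, which imports coenzyme A in exchange for adenine nucleotides, had the same arrangement of groups. It read 7.94, 8.15 and 7.98 in sAB, 8.17, 7.93 and 7.91 in AB, 8.65, 8.57 and 8.67 in sDB3, and 8.77, 8.74 and 8.61 in DB3. Again the 6 arrays taken 3 days after the second operation lay above the other 6. The differences were 0.61 (SE 0.088, limma adjusted p 0.00266) for sDB3 against sAB and 0.70 (adjusted p 0.00187) for DB3 against AB, or 1.52-fold and 1.63-fold. AB was below sDB3, with a difference of -0.63 (adjusted p 0.00143). AB against sAB gave -0.02 and DB3 against sDB3 gave 0.08, so the banding contrasts within each time point were small. All 3 calls held with each array compared left out, at adjusted p values of at most 0.0121, and under every scaling and filter tried.

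The promoters of this pair are shown because they were the 2 carriers called in the same direction in both comparisons across the second operation. The 250 bases before the start are given 5′ to 3′ from RefSeq on GRCm38.p6, both on the minus strand, at chr7:141437875-141438124 for Slc25a22 and chr8:70212282-70212531 for Slc25a42. Slc25a22 has 3 starts in the table, of which the most upstream was used. Capitals mark the GC box, the bases bound by Sp1-type factors, searched as GGGCGG on either strand.
Slc25a22: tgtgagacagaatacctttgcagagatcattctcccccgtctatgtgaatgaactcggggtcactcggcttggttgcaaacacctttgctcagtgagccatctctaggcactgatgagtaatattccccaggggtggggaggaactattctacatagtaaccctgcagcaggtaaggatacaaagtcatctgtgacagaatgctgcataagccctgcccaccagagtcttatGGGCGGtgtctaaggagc
Slc25a42: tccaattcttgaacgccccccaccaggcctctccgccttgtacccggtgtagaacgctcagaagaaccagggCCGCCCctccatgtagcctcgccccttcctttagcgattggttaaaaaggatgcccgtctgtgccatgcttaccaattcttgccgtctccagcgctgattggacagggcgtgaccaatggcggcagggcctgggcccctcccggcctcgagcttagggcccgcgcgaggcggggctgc
Each held 1 GC box and neither held a nuclear receptor half-site (AGGTCA on either strand) or an E-box (CACGTG). A GC box occurred in 32.7% of all 32851 promoter windows of this length and in 26 of 33 windows (78.8%) of the 27 measured carriers that matched the table. The half-site occurred in 14.02% of all windows and in 3 of 33 carrier windows, and the E-box in 6.02% and in 7 of 33. These matches describe letters only.

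The comparisons across the second operation, sDB3 against sAB and DB3 against AB, share no arrays. Both were called in the same direction for 2 carriers, Slc25a22 and Slc25a42, while 1.95% of all genes had this pattern. That count rests on the 1 probe set that stood for each gene. With every probe set tested on its own, 2 of the 3 for Slc25a36 were called lower in sDB3 against sAB, where all 3 ran from -0.60 to -0.33. In DB3 against AB 2 of the 3 were also called lower, with a range of -0.83 to -0.44. In all, 4 carriers had both later groups on one side of both earlier groups on every array, beside 4.75% of all genes. Slc25a22 and Slc25a42 were above, and Slc25a36 and Slc25a40 below. Of the 35 carriers, 25 (71.4%) had the same sign in both comparisons, against 60.3% of all genes, and the log2 differences correlated with r = 0.53 over the 35 carriers and 0.29 over all genes. These are values across genes of shared arrays, and genes are not independent replicates. The second operation and the 3 further days cannot be told apart in this design.

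**Figure D3:**
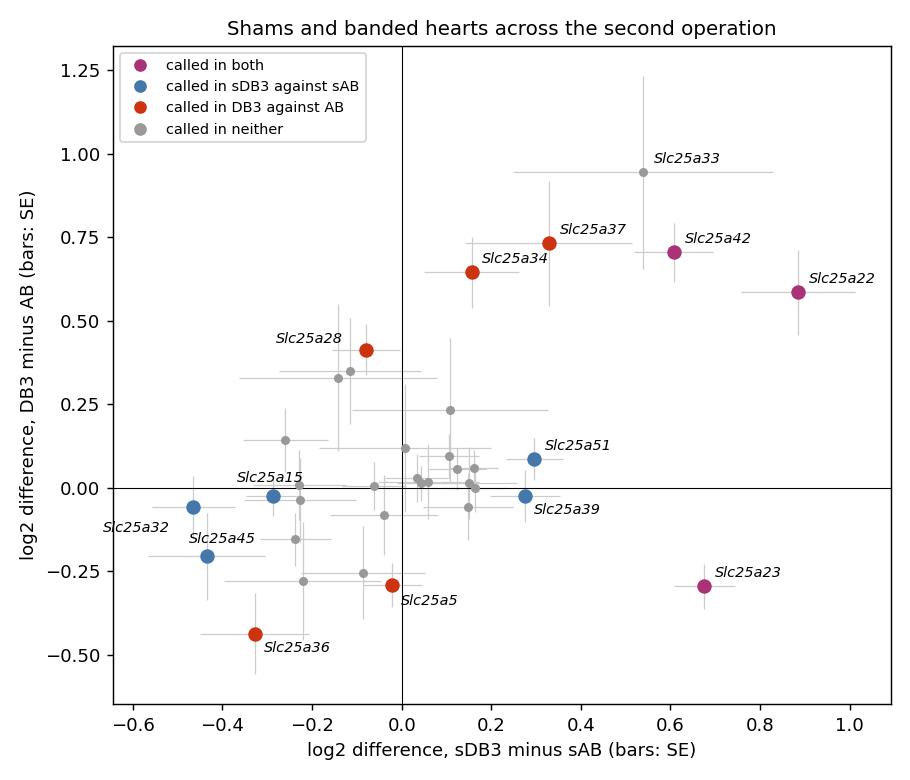
Log2 difference of each of the 35 carriers in sDB3 against sAB (horizontal axis) and in DB3 against AB (vertical axis), with standard errors as bars and colours for the comparison in which a carrier was called. Slc25a42 (0.61 and 0.70) and Slc25a22 (0.88 and 0.58) lie at the upper right, and Slc25a23 (0.68 and -0.30) has opposite signs.

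Of the remaining amino acid carriers, 1 was called between the shams. Slc25a15, the ornithine carrier of the urea cycle, ranged from 8.71 to 8.83 in sAB and from 8.46 to 8.51 in sDB3, a difference of -0.29 (SE 0.060, limma adjusted p 0.0115) that was lost when its probe sets were averaged (adjusted p 0.303). The AB arrays, at 8.53 to 8.66, and the DB3 arrays, at 8.55 to 8.61, lay between the shams. Slc25a44, a carrier of branched-chain amino acids, had group means of 7.53 to 7.85, Slc25a29, for basic amino acids, ranged from 5.80 to 6.77, and Slc25a38, which supplies glycine for heme synthesis, from 6.14 to 7.19. Slc25a44, Slc25a29 and Slc25a38 were called in no comparison, although all 3 DB3 arrays of Slc25a38 were above the other 9.

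Of 10 measured carriers of cofactors, nucleotides and glutathione, Slc25a51 was called in AB against sAB. It imports NAD into the matrix. Its probe set read 10.31, 10.26 and 10.18 in sAB, 10.71, 10.59 and 10.68 in AB, 10.61, 10.50 and 10.53 in sDB3, and 10.78, 10.75 and 10.70 in DB3. The sAB arrays were below the other 9. AB exceeded sAB by 0.41 (SE 0.063, limma adjusted p 0.00182) and sDB3 exceeded sAB by 0.30 (adjusted p 0.0123), while AB against sDB3 gave 0.11 and was not called. A second, dimmer probe set gave -0.06 in AB against sAB, and with both averaged the calls against sAB were lost, at an adjusted p of 0.0841 for AB and 0.0863 for sDB3.

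Slc25a32, a carrier of folate and flavin, differed in the later sham. It read 6.06, 6.30 and 6.07 in sAB, 6.25, 6.07 and 6.05 in AB, 5.63, 5.59 and 5.82 in sDB3, and 6.12, 6.10 and 5.98 in DB3. The sDB3 arrays were below all 9 others, and the other groups overlapped. sDB3 was below sAB, with a difference of -0.46 (SE 0.093, limma adjusted p 0.00996), and AB and DB3 exceeded sDB3 by 0.45 (adjusted p 0.00885) and 0.39 (adjusted p 0.0399). The last call was lost without any DB3 replicate or without sDB3 replicate 1 or 2, at up to 0.105. It was also lost under 8 of 10 other settings. The other 2 probe sets of Slc25a32 were not called in any comparison, and with all 3 averaged none of these calls held, at adjusted p values of 0.0771, 0.231 and 0.452.

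Slc25a36 and Slc25a33 carry pyrimidine nucleotides, the substrates of mitochondrial RNA and DNA synthesis. Slc25a36 read 9.92, 10.04 and 9.87 in sAB, 10.03, 10.22 and 9.90 in AB, 9.43, 9.55 and 9.86 in sDB3, and 9.48, 9.66 and 9.70 in DB3. The DB3 signal was below AB, with a difference of -0.44 (SE 0.12, limma adjusted p 0.0481), and AB exceeded sDB3 by 0.44 (adjusted p 0.0285). The first call was lost with any 1 of the 6 arrays left out, at up to 0.170, and the second without sDB3 replicate 1 or 2 or AB replicate 1 or 2, at up to 0.104. Of 10 other settings, 6 lost the first call and 4 lost the second. The other 2 probe sets gave larger differences in DB3 against AB, -0.62 (adjusted p 0.0123) and -0.83 (adjusted p 0.00322). All 3 probe sets were called higher in AB than in sDB3.

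Slc25a33 ranged from 8.45 to 8.68 in sAB, 8.43 to 8.51 in AB, 8.29 to 9.51 in sDB3 and 8.98 to 9.77 in DB3. Its difference in DB3 against AB, 0.94 (SE 0.29), was the highest of the 35 in that comparison but did not pass (limma adjusted p 0.0683). The sDB3 arrays of Slc25a33 held both its lowest value of all 12 arrays and 2 values above 9, so the spread within that group was wide.

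The glutathione carriers Slc25a39 and Slc25a40 had differences of opposite sign between the shams. Slc25a39 was higher in sDB3 than in sAB by 0.28 (SE 0.078, limma adjusted p 0.0352), a call lost after centring each array (adjusted p 0.0557) and without sDB3 replicate 1 or 2 or sAB replicate 1 or 3, at up to 0.105. Slc25a40 gave -0.24 and was not called. A dimmer probe set of Slc25a39 gave 0.59 in AB against sAB (adjusted p 0.00280) and 0.68 in sDB3 against sAB (adjusted p 0.00230), but -0.10 in AB against sDB3 (adjusted p 0.533). Slc25a16, linked to coenzyme A, ranged from 8.87 to 9.61, Slc25a17, the peroxisomal cofactor carrier, from 6.48 to 7.52, and Slc25a26, for S-adenosylmethionine, from 7.99 to 8.53. None of these 3 was called, although a dimmer probe set of Slc25a26 was lower in sDB3 than in sAB, with a difference of -0.59 (adjusted p 0.00419), and in AB than in sAB, at -0.33 (adjusted p 0.0386), with 0.26 in AB against sDB3 (adjusted p 0.0884).

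The mitoferrins deliver iron for heme and iron-sulfur clusters. Slc25a28, mitoferrin-2 of most tissues, read 8.71, 8.72 and 8.60 in sAB, 8.64, 8.44 and 8.54 in AB, 8.59, 8.53 and 8.67 in sDB3, and 9.05, 8.91 and 8.90 in DB3. All 3 DB3 arrays were above the other 9. The signal exceeded AB by 0.41 (SE 0.076, limma adjusted p 0.00931) and sDB3 by 0.36 (adjusted p 0.0294). The difference in DB3 against sDB3 exceeded that in AB against sAB, which was -0.13, by 0.49 (SE 0.11, adjusted p 0.0296). The call against AB held with each array left out, at no more than 0.0430. The call against sDB3 was lost without any DB3 replicate or without sDB3 replicate 1 or 2, at up to 0.0790. The difference of effects was lost without DB3 replicate 1, sDB3 replicate 1 or 2, AB replicate 2 or 3 or sAB replicate 1 or 2, at up to 0.0729.

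Slc25a37, mitoferrin-1 of developing red cells, read 7.84, 7.91 and 7.72 in sAB, 7.46, 7.50 and 7.65 in AB, 8.51, 8.22 and 7.73 in sDB3, and 8.55, 7.96 and 8.29 in DB3. The AB arrays were below the other 9. DB3 exceeded AB by 0.73 (SE 0.19, limma adjusted p 0.0355), and AB was below sDB3, with a difference of -0.62 (adjusted p 0.0383). The first call was lost without DB3 replicate 1 or 3 or any AB replicate, at up to 0.117. The second was lost without sDB3 replicate 1 or 2 or any AB replicate, at up to 0.118, and after centring, at 0.0502. Alas2, the erythroid enzyme that starts heme synthesis and the 1 blood marker of 4 that was measured under a single symbol, read 9.01, 8.64 and 7.42 in sDB3 and 9.45, 8.18 and 8.87 in DB3. It read 7.90, 7.48 and 7.85 in AB and 7.63, 8.11 and 7.46 in sAB. Within sAB, sDB3 and DB3 the arrays had the same order for Alas2 and Slc25a37, but within AB replicate 1 was the highest for Alas2 and the lowest for Slc25a37. The globin genes of the list were not among the measured genes, and the part of blood RNA in the Slc25a37 values was not tested.

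Slc25a34, an orphan carrier without a settled substrate, had a lower signal in banded hearts than after debanding. It read 10.07, 10.34 and 10.25 in sAB, 10.06, 9.91 and 9.94 in AB, 10.31, 10.49 and 10.33 in sDB3, and 10.81, 10.42 and 10.61 in DB3. The AB arrays were below the other 9, and the DB3 and sDB3 arrays overlapped. DB3 exceeded AB by 0.64 (SE 0.11, limma adjusted p 0.00586), 1.56-fold, and this held with each array left out at no more than 0.0294. AB was below sDB3, with a difference of -0.41 (adjusted p 0.0227), a call lost without sDB3 replicate 2 or AB replicate 2 or 3, at up to 0.0772. Against sAB the difference was -0.25 and was not called.

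**Figure D4:**
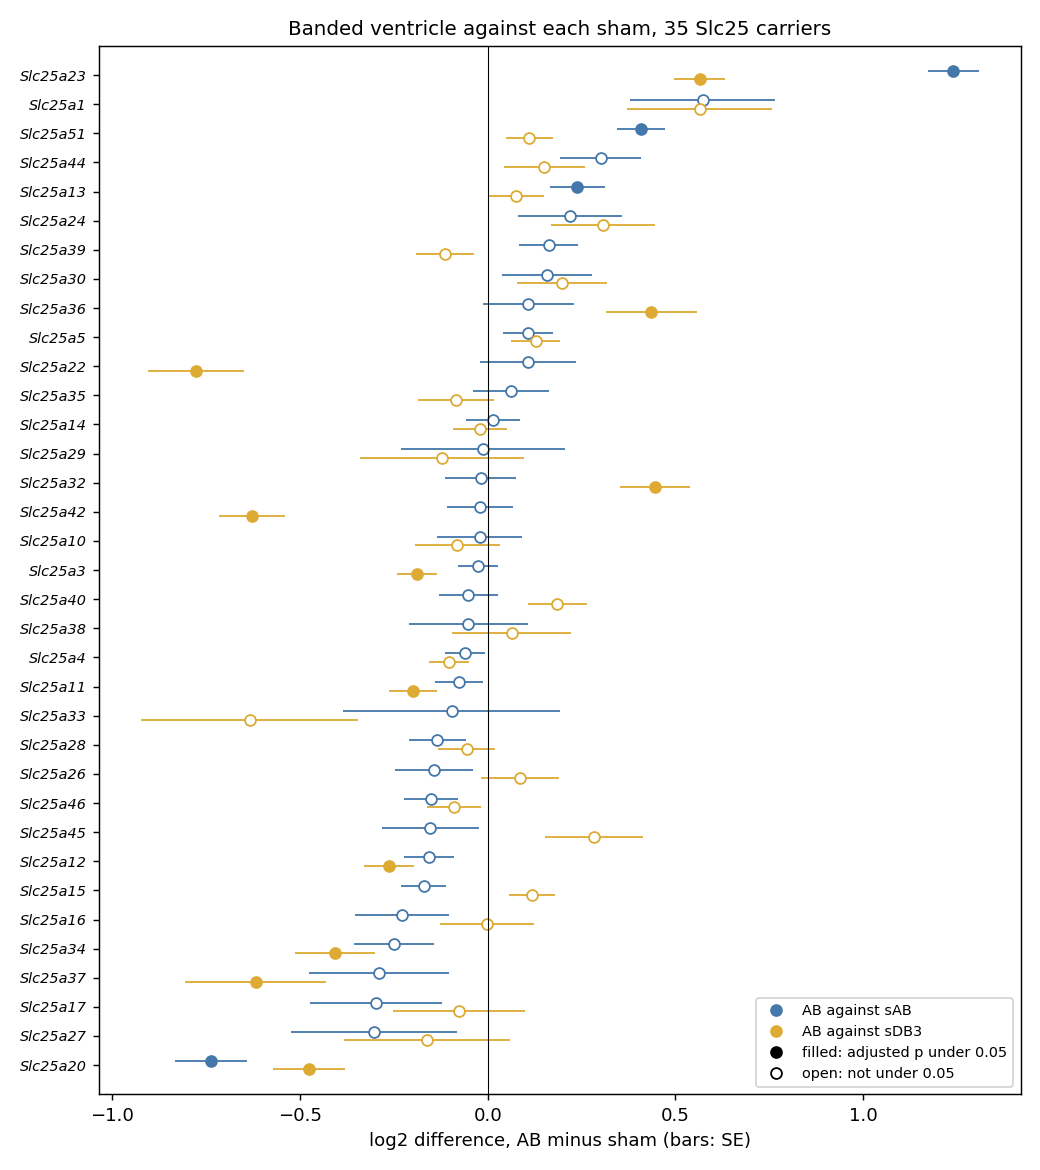
Log2 difference of AB against sAB (blue) and of AB against sDB3 (yellow) for each of the 35 carriers, with standard errors as bars and filled points where the adjusted p was under 0.05. Slc25a23 (1.24 and 0.56) and Slc25a20 (-0.74 and -0.48) are filled for both shams, and Slc25a22 and Slc25a42 are among those filled for sDB3 alone. The comparisons share the AB arrays.

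Slc25a20 and Slc25a23 were thus the 2 carriers called in the same direction against both shams, a pattern found in 8.37% of all genes. Slc25a45, of unsettled substrate, was lower in sDB3 than in sAB, with a difference of -0.44 (SE 0.13, limma adjusted p 0.0422), with signals of 4.11 to 4.95 just above the filter. That call was lost without sDB3 replicate 1 or 2 or any sAB replicate, at up to 0.107. Slc25a35, another orphan, ranged from 5.99 to 6.46, and Slc25a46, an outer membrane protein that acts in mitochondrial shape, from 10.93 to 11.24, with no call for either. The uncoupling-protein relatives Slc25a14 (4.02 to 4.28), Slc25a27 (3.84 to 4.79) and Slc25a30 (7.15 to 7.69) were not called in any comparison. Slc25a14 and Slc25a27 lay close to the filter at 4, and Slc25a14 read the same value, 4.0855, on all 3 sAB arrays. In all, 17 of the 35 carriers were called in none of the 6 comparisons, beside 57.9% of all genes.

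The 9 carriers below the filter were Slc25a2, Slc25a18, Slc25a25, Slc25a31, Slc25a41, Slc25a47, Slc25a48, Slc25a53 and Slc25a54. Slc25a31 is the adenine nucleotide carrier of male germ cells, Slc25a47 a carrier of liver, and Slc25a2 and Slc25a18 carry ornithine and glutamate. Their highest value on any array ran from 2.23, the lowest value in the table, to 3.86 for Slc25a47, just outside the filter. Slc25a25, the third calcium-regulated ATP-Mg carrier, reached 3.84. By the filter used here, the arrays give no usable level for these genes.

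Relatives of the family under other symbols were described from a list of 5, of which 3 were measured. Mtch1, an outer membrane protein with the carrier fold, was higher in AB than in sAB by 0.54 (SE 0.080, limma adjusted p 0.00134) and in sDB3 than in sAB by 0.36 (adjusted p 0.0144), and its difference of effects was -0.53 (adjusted p 0.0269). In AB against sDB3 it gave 0.18 (adjusted p 0.125). The uncoupling protein gene Ucp3 was not called in any comparison. Of 13 measured genes of the pathway that inserts carriers into the inner membrane, Tomm40, the outer membrane import pore, was higher in AB than in sAB by 0.53 (adjusted p 0.00511) and in sDB3 than in sAB by 0.56 (adjusted p 0.00670). In AB against sDB3 Tomm40 gave -0.03 (adjusted p 0.878), its difference of effects was -0.56 (adjusted p 0.0468), and no gene of the pathway was called in AB against sDB3 by limma. The other 12 genes of the pathway were not called in AB or sDB3 against sAB.

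Of 20 listed transport proteins outside the family, 14 were measured. In AB against sAB 1 was higher and 1 lower, and in AB against sDB3 2 were higher and 1 lower. Vdac1, the outer membrane channel through which carrier substrates reach the inner membrane, was lower in AB, with differences of -0.39 against sAB (SE 0.062, limma adjusted p 0.00214) and -0.21 against sDB3 (adjusted p 0.0359). Sfxn3, a serine transporter of the inner membrane, was higher by 0.35 (adjusted p 0.0372) and 0.38 (adjusted p 0.0257). Micu2, a subunit of the calcium uniporter gate, was higher in AB than in sDB3 by 0.24 (adjusted p 0.00989). The difference of effects passed for Vdac1, at 0.40 (adjusted p 0.0303).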

How the data were processed

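Left ventricular RNA of 12 mice was hybridised to Affymetrix arrays, 1 array per mouse. The authors' deposited values are log2 signals made with GCRMA, per the submitters' processing notes; its version and grouping of arrays are not given in the sources. The 3 arrays per group limit the precision. Of 45101 probe sets, 34945 had 1 gene symbol; genes were kept where a probe set exceeded 4 on at least 3 arrays. limma 3.58.1 in R 4.3.3 fitted 4 group means to 10435 genes with two-sided tests and Benjamini-Hochberg adjustment over all of them, and a call is an adjusted p under 0.05. With 3 arrays per group the smallest exact two-sided permutation p is 0.1. The procedure was tested on simulated data. Alternatives changed the scaling, filter, probe set, moderation and arrays.

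Members and lists were chosen with earlier results of these data known. By rule every measured member was named, and per-array values were given for those called in AB against sAB, DB3 against sDB3, their difference or DB3 against AB, and for Slc25a3, Slc25a4, Slc25a5, Slc25a11, Slc25a12 and Slc25a20. Of the lists, up to 4 genes each with the lowest F-test p were named. Each group held 3 mice, per the labels. The limma p-values set differences of group means against the spread between mice within groups. That spread was pooled over the 4 groups and moderated across genes.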

Additional observations from a re-analysis of the deposited data

Results flagged for a closer look

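For Slc25a23 the effect of banding and the effect left after debanding differed by the interaction term of the model. The log2 difference was 1.24 in AB against sAB and 0.27 in DB3 against sDB3 (0.15 after quantile normalization), and the difference of effects was -0.97 (SE 0.096, limma adjusted p 0.000987). The sAB arrays, which stand apart on the spiked BioC RNA, enter that term with the lowest Slc25a23 signals. The term also equals DB3 against AB (-0.30) less sDB3 against sAB (0.68), so the gap between the shams is its larger part. The part of the handling of the sAB arrays in it was not tested.

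For Slc25a28 the interaction term was 0.49 (SE 0.11, limma adjusted p 0.0296), with -0.13 in AB against sAB and 0.36 in DB3 against sDB3. All 3 DB3 arrays lay above the other 9, and the call was lost with 7 of the 12 arrays left out in turn, at an adjusted p of up to 0.0729.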

How the results depend on the processing

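Over 1182 alternative values, no called difference changed sign. Removing the filter, changing the moderation or fitting only the groups compared left the estimates as they were, so no sign could change there. Single probe sets did differ in sign from a called one. Examples are Slc25a51 in AB against sAB (-0.06 beside 0.41) and Slc25a15 in sDB3 against sAB (0.08 beside -0.29). Leaving out 1 array in turn gave 3 to 4 called carriers in AB against sAB, 0 to 2 in DB3 against sDB3, 1 to 2 for the difference of effects, 3 to 5 in DB3 against AB, 6 to 11 in sDB3 against sAB, 5 to 11 in AB against sDB3 and 10 to 16 in the F test. For DB3 against sDB3, the 3 calls became 0 after quantile normalization and 0 with only the groups compared in limma, where 11 and 6 carriers had an unadjusted p under 0.05, and 1 when every probe set was tested. In DB3 against AB the 8 calls became 5 without the filter on dim probe sets. With only the groups compared, sDB3 against sAB had 3 calls and AB against sDB3 had 7. Without the 3 sAB arrays, an alternative chosen after seeing the data, there were 2 calls in DB3 against sDB3, 6 in DB3 against AB and 9 in AB against sDB3. The cause was not tested. No paired analysis was possible because the labels give the animals no replicate numbers shared between groups.

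The limits are 3 animals per group, 1 time after debanding, no batch record in the labels, and log2 signals whose floor (2.23) and top (16.35 to 16.61) bound what a probe set can show. Differences between groups were not assessed for the 9 dim carriers, which lay below the filter.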
